A study of Mus musculus with 3 samples.

Results

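The genes described here are 52 genes of DNA repair and of the DNA damage checkpoint, taken by name from the 23393 genes of the table. They cover 4 checkpoint kinases, 15 genes of homologous recombination, 10 Fanconi genes, 5 genes of end joining, 3 of mismatch repair, 9 of base excision and single-strand break repair and 6 of nucleotide excision repair. The genes were listed by function, with earlier results of these data known. RNA was measured in cells sorted from the bone marrow of C57BL/6 mice that carry the Map17-GFP reporter, with 1 library for each of 3 populations. All were LSK cells, a compartment without lineage markers, positive for Sca-1 and c-Kit, where the stem cells and earliest progenitors are found. GFP+ HSCs were hematopoietic stem cells gated as CD48- and CD150+ with the reporter on, and GFP- HSCs came from the same gate with the reporter off. MPPs, the multipotent progenitors below the stem cells, were gated as CD48+, CD150- and GFP-. The sources used here do not give the age or number of the mice or say whether cells of several mice were pooled.

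The value of a gene is its normalized count, called its level, and a ratio is the difference of log2(level + 5) between 2 libraries. With 1 library per population there is no replicate error, no test was possible and no p-value is given. A ratio here describes a pair of libraries and not the populations, and fewer cells expressing a gene cannot be told apart from less RNA per cell. The sums of levels were 25311805 in GFP+ HSCs, 25375047 in GFP- HSCs and 26689660 in MPPs, as scaled by the authors, and the sequencing depth behind them is unknown. The transcripts of the sort markers went with the gates. Slamf1, the gene of CD150, stood at 2219 in GFP+ HSCs, 2144 in GFP- HSCs and 17 in MPPs. Cd48 stood at 64 in GFP+ HSCs, 168 in GFP- HSCs and 7744 in MPPs. Pdzk1ip1, the gene of Map17, stood at 5659 in GFP+ HSCs, 3673 in GFP- HSCs and 290 in MPPs, so its transcript was present in the GFP- fraction too. Several transcripts that define mature lineages were listed at 0. Of 6 erythroid genes, the globin genes Hba-a1 and Hbb-b1 were listed at 0 in all 3 libraries, and the other 4 were above 0. The annotation and the counting tool are not given, so a listed 0 need not mean that the RNA was absent. Of 6 T and NK cell genes, Cd3e and Cd3g were listed at 0 in both HSC libraries, and Cd8a in GFP- HSCs alone. Of 6 B cell genes, Ms4a1 and Pax5 were listed at 0 in both HSC libraries. The other genes of both lists were above 0 in the HSC libraries, and no gene of either list was at 0 in MPPs.

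DNA repair divides by the kind of lesion. Double-strand breaks are either copied back from the sister chromatid by homologous recombination, which needs a replicated genome, or rejoined directly by end joining, which works in resting cells too. The Fanconi pathway unhooks crosslinks between the strands at replication forks. Mismatch repair corrects copying errors, base excision repair replaces single altered bases, and nucleotide excision repair cuts out bulky damage such as that made by ultraviolet light. The kinases ATM and ATR report damage to the checkpoint kinases CHK2 and CHK1, which hold the cell cycle. Stem cells of the marrow are mostly at rest, and inherited defects of the Fanconi pathway are known for failure of the bone marrow.

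All 52 genes had a level above 0 in every library and a mean level of at least 50, the minimum for the comparisons, which 11951 genes passed. The lowest was the end joining ligase gene Lig4 with a mean of 50.7, and no other repair gene of the 52 had a mean below 105.7. Most repair genes stood a little lower in GFP+ than in GFP- HSCs, and a little lower in GFP- HSCs than MPPs. Between GFP+ and GFP- HSCs, 39 of 52 were lower and 13 higher in GFP+ HSCs, with a median log2 ratio of -0.16, against 47.8% lower and a median of 0.01 for all compared genes. None of the 52 was 2-fold apart in either direction, where 0.870% of compared genes were at least 2-fold lower and 0.410% at least 2-fold higher. At least 1.5-fold lower in GFP+ HSCs were 4 of 52, or 7.69%, against 3.05% of compared genes, and none was 1.5-fold higher, against 2.50%. Fancd2 and Rad54l, each at a log2 ratio of -0.58, lay just short of that threshold, and rescaling to the same upper quartile made the count 6. Between GFP- HSCs and MPPs, 43 of 52 were lower and 9 higher in GFP- HSCs, with a median of -0.35. Of all compared genes 50.6% were lower, with a median of -0.01. At least 2-fold lower were 3 of 52, or 5.77%, next to 5.53% of compared genes, so this share was near the background. At least 1.5-fold lower were 13, or 25%, against 13.4%. That count was 8 and 7 when the libraries were rescaled to the same total or upper quartile. Rescaling also moved the median of all compared genes, to 0.06 and 0.10 in that order. Shares of all compared genes were not counted after rescaling, so the rescaled counts given here have no background beside them. None of the 52 was 1.5-fold or 2-fold higher in GFP- HSCs, although 19.4% and 11.6% of compared genes were. Xrcc4 alone reached 1.5-fold higher after either rescaling. The widest gap lay between GFP+ HSCs and MPPs, with 45 of 52 lower and 7 higher in GFP+ HSCs and a median of -0.52. Of all compared genes 49.2% were lower in GFP+ HSCs than MPPs, with a median of 0.01. At least 2-fold lower were 12 of 52, or 23.1%, against 8.61% of compared genes, and at least 1.5-fold lower were 23, or 44.2%, against 18.0%. Only Ercc5 was at least 1.5-fold higher, joined by Xrcc4 after either rescaling, against 22.3% of compared genes, and none was 2-fold higher, against 13.7%. These comparisons share libraries with each other, so they are 3 views of the same 3 libraries. Rescaling changed the direction of 3 genes or fewer in any comparison, each close to level, and the farthest of them from 0 was Chek2 with a log2 ratio of -0.10 between GFP+ HSCs and MPPs.

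**Figure D1:**
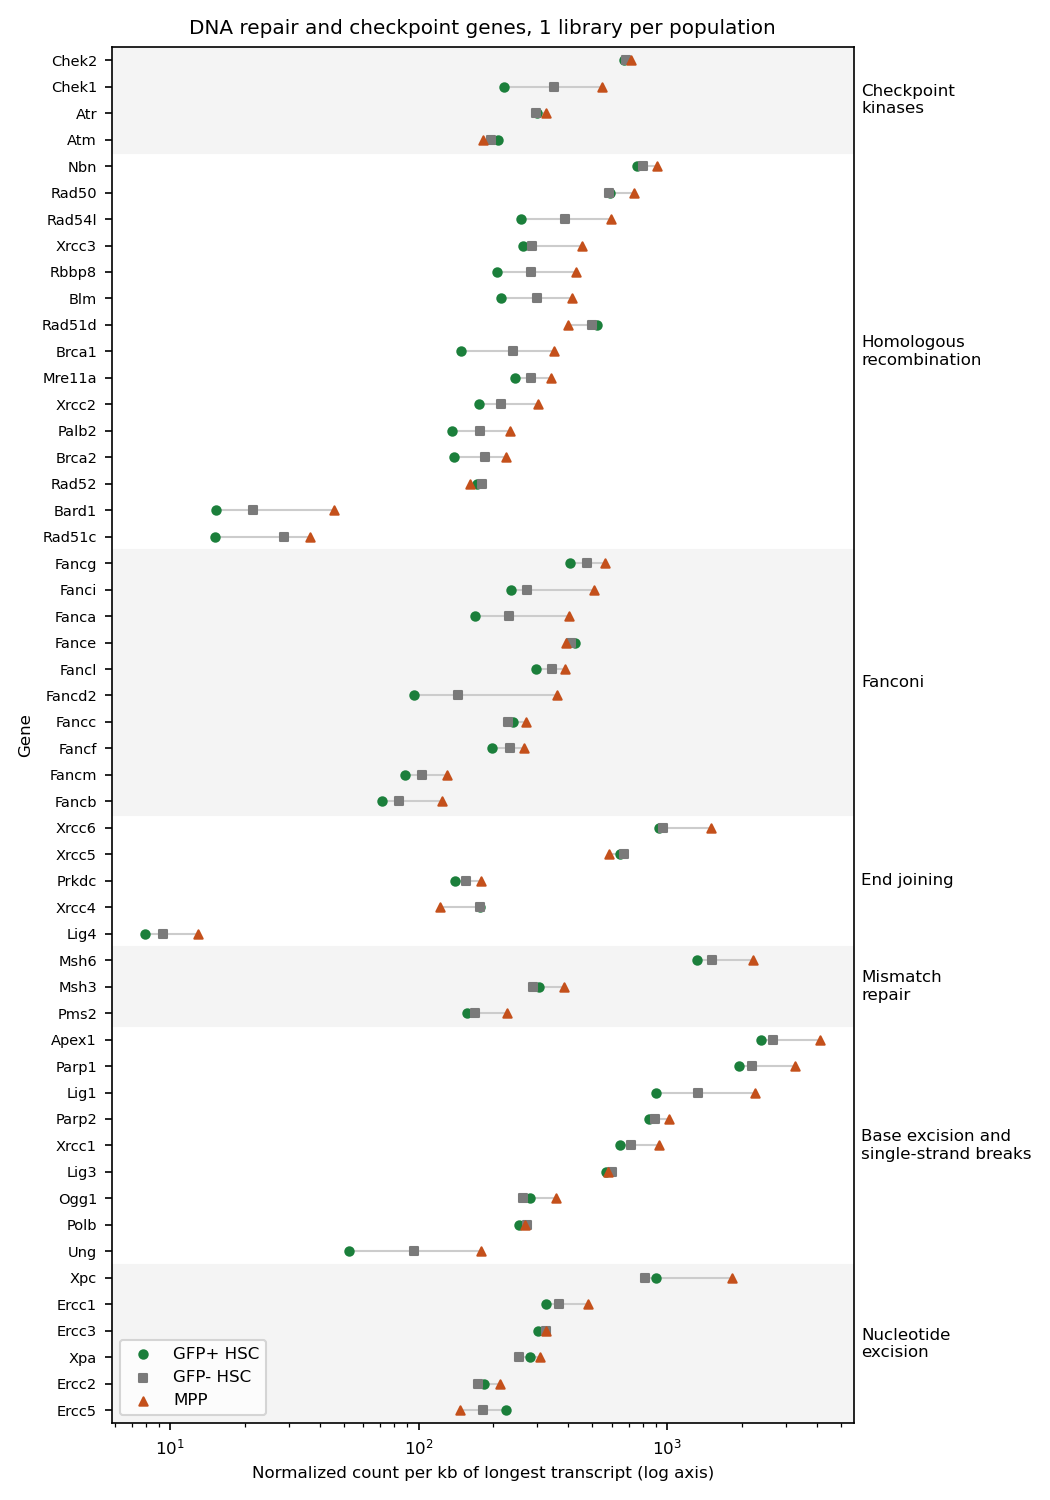
Level of each of the 52 genes in GFP+ HSCs, GFP- HSCs and MPPs, as normalized count per kilobase of the longest annotated transcript on a log axis, grouped by repair pathway, with 1 library per population and no error bars. The marker of MPPs lies to the right of that of GFP- HSCs for 43 of 52 genes, and Fancd2, Ung and Bard1 have wide gaps while Lig3, Polb and Ercc3 have narrow ones.

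The DNA before the starts of these genes is shown for the members at both ends of the comparison of GFP- HSCs with MPPs, because genes that differ between dividing and resting cells often carry sites of E2F, the factor that switches on S phase genes. RefSeq windows (GRCm38.p6) were matched for 42 of the 52 genes, and 250 bases before the start were searched on both strands. The 3 lowest ratios with a window belong to Bard1, Fanci and Ung and the 2 highest to Xrcc4 and Ercc5. The table gives 1 start per window, which need not be the outermost start of the gene. The start used lies inside the RefSeq gene by 796 bases for Ercc5, so that its whole window is within the gene, and by 169 bases for Bard1, 69 for Ung and 26 for Fanci, while that of Xrcc4 is the outer end of the gene. Capitals mark every match to the motifs searched.
Bard1 (chr1:71102973-71103222, minus strand): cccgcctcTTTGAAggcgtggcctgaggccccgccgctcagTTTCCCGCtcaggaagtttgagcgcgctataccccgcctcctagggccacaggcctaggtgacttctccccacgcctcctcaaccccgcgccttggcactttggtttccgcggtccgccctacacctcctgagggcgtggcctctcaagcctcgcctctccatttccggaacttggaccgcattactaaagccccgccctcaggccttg
Fanci (chr7:79392088-79392337, plus strand): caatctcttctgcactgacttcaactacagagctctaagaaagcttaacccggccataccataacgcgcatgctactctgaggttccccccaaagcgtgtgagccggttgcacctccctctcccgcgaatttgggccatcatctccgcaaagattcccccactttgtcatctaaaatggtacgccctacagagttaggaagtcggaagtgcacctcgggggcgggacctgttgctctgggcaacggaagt
Ung (chr5:114130185-114130434, plus strand): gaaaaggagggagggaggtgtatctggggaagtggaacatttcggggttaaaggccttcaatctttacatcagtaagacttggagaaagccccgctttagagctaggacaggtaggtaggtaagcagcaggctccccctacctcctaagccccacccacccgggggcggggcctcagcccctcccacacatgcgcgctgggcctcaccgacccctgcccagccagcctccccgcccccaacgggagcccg
Xrcc4 (chr13:90089609-90089858, minus strand): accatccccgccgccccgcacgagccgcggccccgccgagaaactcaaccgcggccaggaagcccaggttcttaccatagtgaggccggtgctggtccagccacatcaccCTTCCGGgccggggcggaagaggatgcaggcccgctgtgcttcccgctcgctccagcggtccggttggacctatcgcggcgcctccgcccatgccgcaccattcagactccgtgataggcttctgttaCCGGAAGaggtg
Ercc5 (chr1:44147494-44147743, plus strand): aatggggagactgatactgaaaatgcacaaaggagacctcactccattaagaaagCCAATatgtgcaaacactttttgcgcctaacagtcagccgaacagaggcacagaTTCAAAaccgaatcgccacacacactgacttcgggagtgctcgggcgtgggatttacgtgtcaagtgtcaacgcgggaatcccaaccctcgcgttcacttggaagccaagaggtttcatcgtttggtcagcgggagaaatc
The motifs were E2F (TTTCCCGC, TTTGGCGC, TTTCGCGC or TTTGGCGG), the cell cycle element CHR (TTTGAA or TTCGAA), the CCAAT box (CCAAT), ETS (CCGGAAG) and the palindrome of NRF1. Bard1 holds an E2F word 209 to 202 bases before its start and a CHR word 242 to 237 bases before it. Xrcc4 holds a pair of ETS words, and Ercc5 a CCAAT box and a CHR word. The windows of Fanci and Ung, both lower in GFP- HSCs, hold no match to any of the letters searched.

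An E2F word lay before 6 of the 42 genes, or 14.3%, against 3.94% of 8994 compared genes and 2.01% of 27025 genes with a window. Besides Bard1 these are Brca2, Chek2, Fancg, Msh3 and Xrcc6, shown with the neighbouring bases and the word in capitals, so that the matches can be compared. The words of Brca2, Chek2, Fancg and Xrcc6 lie inside the RefSeq gene, because the start used is 324 bases inward of the gene's outer end for Brca2, 183 for Chek2, 266 for Fancg and 28536 for Xrcc6.
Brca2 (chr5:150522442-150522471, plus strand): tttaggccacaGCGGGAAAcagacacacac
Chek2 (chr5:110839820-110839849, plus strand): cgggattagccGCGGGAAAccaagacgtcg
Fancg (chr4:43010335-43010364, minus strand): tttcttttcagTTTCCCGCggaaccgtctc
Msh3 (chr13:92355187-92355216, minus strand): ttgccgtcaagTTTGGCGCgaaatcgcagc
Xrcc6 (chr15:82016312-82016341, plus strand): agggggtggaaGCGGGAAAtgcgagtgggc
In Brca2, Chek2 and Xrcc6 the word reads TTTCCCGC on the other strand. In Msh3 the word TTTGGCGC overlaps a second one, TTTCGCGC, on the other strand. Between GFP- HSCs and MPPs the median log2 ratio was -0.36 for the 6 genes with a word and -0.37 for the 36 without, while over compared genes it was -0.18 with and -0.01 without. All 6 genes with the word were lower in GFP- HSCs than MPPs, against 80.6% of the 36 without. At least 1.5-fold lower were 2 of the 6, or 33.3%, against 22.2%. Over compared genes 66.7% with the word and 50.3% without were lower, and 17.8% and 13.1% were at least 1.5-fold lower. Between the HSC fractions none of the 6 was at least 1.5-fold lower in GFP+ HSCs, against 11.1% of those without. Over compared genes the shares were 3.4% with the word and 3.0% without. With 6 genes these shares rest on few values. Chek2, which has the word, was among the genes nearest to 0, and its direction between GFP- HSCs and MPPs turned under both rescalings. CCAAT boxes lay before 22 of 42 genes, or 52.4%, against 36.6% of compared genes, ETS words before 7, or 16.7%, against 14.4%, CHR words before 4, or 9.52%, against 12.1%, and an NRF1 word before Lig4 alone, against 1.78%. A match shows letters in a window, not a bound site.

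Among the checkpoint kinases, Chek1 differed most. Chek1 (chromosome 9, 36708482 to 36726658), the kinase that ATR activates at stalled forks, stood at 836 in GFP+ HSCs, 1327 in GFP- HSCs and 2069 in MPPs. It was 1.59-fold lower in GFP+ than in GFP- HSCs, and 1.56-fold lower in GFP- HSCs than in MPPs. Only 2.36% of compared genes had a lower ratio between the HSC fractions. Its upstream kinase gene Atr was nearly level between the HSC fractions, at 2418 in GFP+ HSCs, 2403 in GFP- HSCs and 2641 in MPPs. The pair that answers double-strand breaks differed by less than Chek1. Atm stood at 2044 in GFP+ HSCs, 1912 in GFP- HSCs and 1778 in MPPs. Chek2, which ATM activates, stood at 1525 in GFP+ HSCs, 1562 in GFP- HSCs and 1631 in MPPs. For Chek2 the direction between GFP- HSCs and MPPs turned under both rescalings, and for Atr that between the HSC fractions turned under the upper quartile. For Atm the log2 ratio was 0.10 between GFP- HSCs and MPPs and 0.20 between GFP+ HSCs and MPPs, and with the trend on length and GC content removed it was -0.14 and -0.10.

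Homologous recombination held the lowest pathway median between the HSC fractions, -0.37, with 13 of 15 genes lower in GFP+ HSCs. The median was -0.40 between GFP- HSCs and MPPs and -0.78 between GFP+ HSCs and MPPs, each again with 13 of 15 lower. Of all compared genes 47.8%, 50.6% and 49.2% were lower in these comparisons in that order. The genes of BRCA1 and its partners were all among those lower. Brca1 (chromosome 11, 101488761 to 101551955), which steers breaks into recombination, stood at 973 in GFP+ HSCs, 1571 in GFP- HSCs and 2308 in MPPs, and was 1.61-fold lower in GFP+ than in GFP- HSCs. Its partner in a ubiquitin ligase, Bard1 (chromosome 1, 71027535 to 71103141), stood at 87 in GFP+ HSCs, 122 in GFP- HSCs and 259 in MPPs and was 2.12-fold lower in GFP- HSCs than in MPPs. Bard1 had a mean level under 200, and it was not past 2-fold with a pseudocount of 20 or after either rescaling. Palb2, which bridges BRCA1 and BRCA2, stood at 512 in GFP+ HSCs, 665 in GFP- HSCs and 876 in MPPs. Brca2, which acts with PALB2 in recombination, stood at 1494 in GFP+ HSCs, 1977 in GFP- HSCs and 2421 in MPPs. All 4 genes were lowest in GFP+ HSCs and highest in MPPs.

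Genes of end resection, which prepares a break for recombination, differed by unequal amounts. Rbbp8, the gene of CtIP, stood at 1130 in GFP+ HSCs, 1552 in GFP- HSCs and 2352 in MPPs, a 1.37-fold lower level in GFP+ than in GFP- HSCs and a 1.52-fold lower level in GFP- HSCs than in MPPs. The MRE11 complex, which binds the broken end, differed less. Mre11a stood at 1383 in GFP+ HSCs, 1605 in GFP- HSCs and 1934 in MPPs. Nbn stood at 1908 in GFP+ HSCs, 2021 in GFP- HSCs and 2296 in MPPs, and Rad50 was at 3036 in GFP+ HSCs, 3016 in GFP- HSCs and 3774 in MPPs. The folds of these 3 genes were 1.16 or less between the HSC fractions and 1.25 or less between GFP- HSCs and MPPs.

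The motor gene Rad54l and the helicase gene Blm were lower in GFP+ HSCs. Rad54l, a motor protein of strand exchange, stood at 1184 in GFP+ HSCs, 1774 in GFP- HSCs and 2727 in MPPs, which is 1.5-fold lower in GFP+ than in GFP- HSCs and 1.54-fold lower in GFP- HSCs than in MPPs. Blm, the helicase of Bloom syndrome that dissolves joined chromatids, stood at 1021 in GFP+ HSCs, 1425 in GFP- HSCs and 1985 in MPPs. Rad52, which anneals single strands, stood at 611 in GFP+ HSCs, 637 in GFP- HSCs and 571 in MPPs. Rad51c, Rad51d, Xrcc2 and Xrcc3, 4 other genes of homologous recombination, did not share a direction. Rad51c (chromosome 11, 87376645 to 87404954) had the lowest ratio of all 52 genes between the HSC fractions, at levels of 60 in GFP+ HSCs and 113 in GFP- HSCs, 1.88-fold lower, with 144 in MPPs. Its log2 ratio of -0.86 was next to the -0.85 of Ung, and with a pseudocount of 20 Ung was the lower, at -0.80 against -0.73. Rad51d ran against it, with 1850 in GFP+ HSCs, 1771 in GFP- HSCs and 1410 in MPPs, 1.26-fold higher in GFP- HSCs than MPPs. Xrcc2 stood at 568 in GFP+ HSCs, 699 in GFP- HSCs and 982 in MPPs. Xrcc3 stood at 637 in GFP+ HSCs, 691 in GFP- HSCs and 1096 in MPPs. It was 1.59-fold lower in GFP- HSCs than in MPPs but 1.08-fold lower in GFP+ than in GFP- HSCs.

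The Fanconi genes were lower in GFP+ HSCs in 8 of 10 cases against GFP- HSCs, with a median log2 ratio of -0.22. They were lower in GFP- HSCs in 9 of 10 cases against MPPs, with a median of -0.29. Of all compared genes 47.8% and 50.6% were lower in these comparisons in that order. The pair of proteins that the pathway ubiquitinates had the lowest ratios of the Fanconi genes between GFP- HSCs and MPPs. Fancd2 (chromosome 6, 113531640 to 113597020) stood at 528 in GFP+ HSCs, 794 in GFP- HSCs and 1991 in MPPs, the lowest ratio of the 52 genes in both comparisons with MPPs. It was 2.51-fold lower in GFP- HSCs than in MPPs, 3.77-fold lower in GFP+ HSCs than MPPs, and 1.5-fold lower in GFP+ than in GFP- HSCs. Its partner Fanci stood at 1092 in GFP+ HSCs, 1272 in GFP- HSCs and 2351 in MPPs, 1.85-fold lower in GFP- HSCs than MPPs and 1.16-fold lower in GFP+ than in GFP- HSCs. Between GFP+ HSCs and MPPs Fanca, at a log2 ratio of -1.25, was lower than Fanci, at -1.10.

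The core complex, which carries the ubiquitin ligase, was less uniform. Fanca stood at 757 in GFP+ HSCs, 1038 in GFP- HSCs and 1801 in MPPs, and was the core gene with the lowest ratios in each comparison. The X-linked Fancb stood at 213 in GFP+ HSCs, 249 in GFP- HSCs and 371 in MPPs. Fancm, the translocase that anchors the complex on DNA, stood at 689 in GFP+ HSCs, 807 in GFP- HSCs and 1016 in MPPs. Fancl, the ligase itself, stood at 805 in GFP+ HSCs, 936 in GFP- HSCs and 1056 in MPPs. Fancg was at 1206 in GFP+ HSCs, 1422 in GFP- HSCs and 1668 in MPPs, and Fancf was at 333 in GFP+ HSCs, 395 in GFP- HSCs and 450 in MPPs. These 5 genes were 1.16- to 1.19-fold lower in GFP+ than in GFP- HSCs, a narrow range. Fancc, at 756 in GFP+ HSCs, 722 in GFP- HSCs and 856 in MPPs, and Fance, at 932 in GFP+ HSCs, 900 in GFP- HSCs and 861 in MPPs, were slightly higher in GFP+ than in GFP- HSCs.

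**Figure D2:**
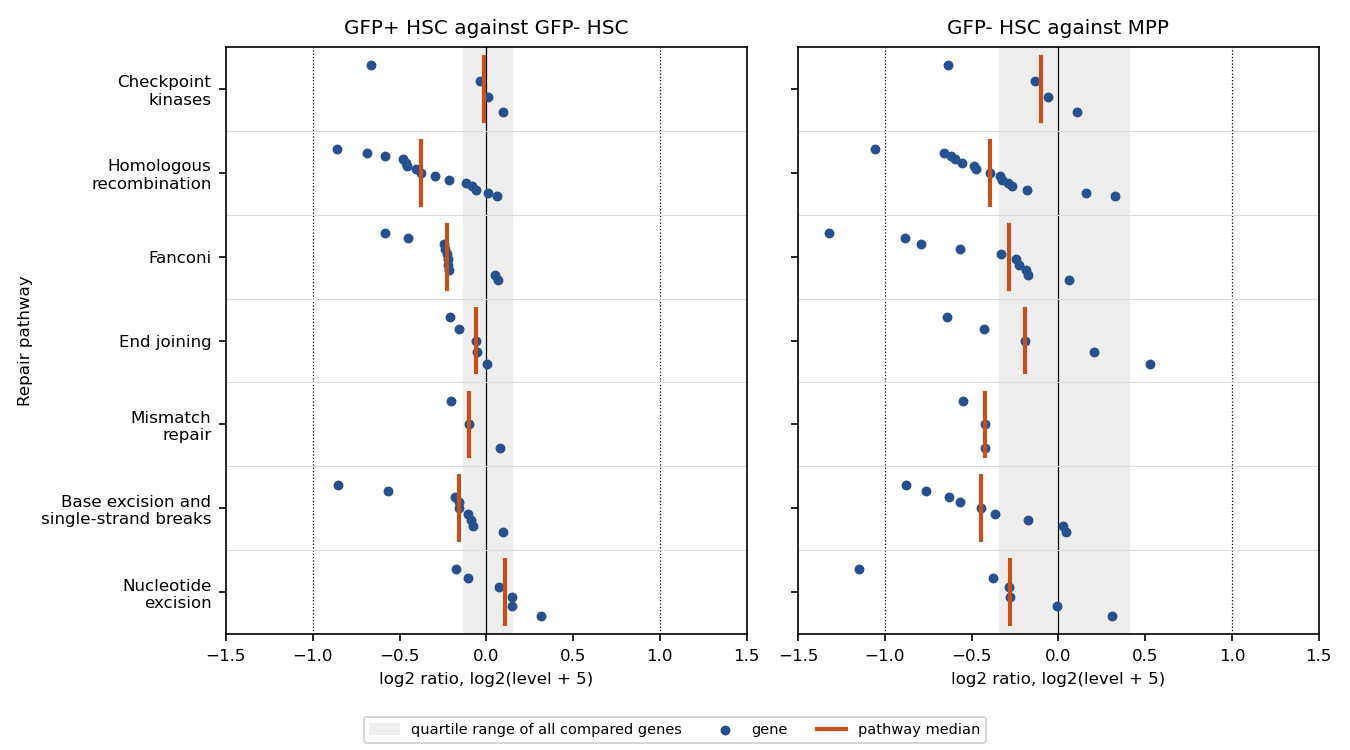
Log2 ratios of the 52 genes by repair pathway for GFP+ against GFP- HSCs (left) and GFP- HSCs against MPPs (right), where each point is a gene, the orange bar is the pathway median, the grey band is the quartile range of all compared genes and dotted lines mark 2-fold. The bar of homologous recombination lies at -0.37 on the left and that of nucleotide excision at 0.11, and 3 genes, Fancd2, Bard1 and Xpc, pass the dotted line on the right.

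End joining genes were close to level between the HSC fractions, with ratios from -0.21 to 0.00 and a median of -0.06. Against MPPs they split. Xrcc4 (chromosome 13, 89848914 to 90089608), the scaffold of the ligase, had the highest ratio of the 52 genes between GFP- HSCs and MPPs, with levels of 604 in GFP+ HSCs, 603 in GFP- HSCs and 417 in MPPs, 1.45-fold higher in GFP- HSCs than MPPs. Its partner Lig4 stood at 40 in GFP+ HSCs, 47 in GFP- HSCs and 65 in MPPs, 1.38-fold lower in GFP- HSCs than MPPs and close to the minimum level. The subunits of Ku, the ring that binds the ends, went opposite ways. Xrcc6, the gene of Ku70, stood at 3056 in GFP+ HSCs, 3174 in GFP- HSCs and 4958 in MPPs, 1.56-fold lower in GFP- HSCs than in MPPs. Xrcc5, the gene of Ku80, stood at 1651 in GFP+ HSCs, 1718 in GFP- HSCs and 1488 in MPPs, 1.15-fold higher in GFP- HSCs than MPPs. Prkdc, the kinase that Ku recruits, stood at 1767 in GFP+ HSCs, 1970 in GFP- HSCs and 2250 in MPPs.

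All 3 mismatch repair genes were lower in GFP- HSCs than MPPs, with ratios from -0.55 to -0.42, where 50.6% of compared genes were lower. Msh6, which recognises single mismatches, stood at 5603 in GFP+ HSCs, 6444 in GFP- HSCs and 9418 in MPPs, 1.46-fold lower in GFP- HSCs than in MPPs. Msh3, which recognises small loops, stood at 1294 in GFP+ HSCs, 1224 in GFP- HSCs and 1640 in MPPs. Pms2, the endonuclease subunit, stood at 968 in GFP+ HSCs, 1037 in GFP- HSCs and 1393 in MPPs. Between the HSC fractions the largest of these ratios was that of Msh6, at -0.20, and Msh3 was 1.06-fold higher in GFP+ HSCs.

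Base excision genes were lower in GFP+ HSCs in 8 of 9 cases against GFP- HSCs, with a median of -0.15, and in all 9 cases against MPPs, with a median of -0.52. Of all compared genes 47.8% and 49.2% were lower in these comparisons in that order. Rescaling to the upper quartile made 7 of 9 lower in the second comparison, because Lig3 and Polb turned. Ung (chromosome 5, 114130366 to 114139321), which removes uracil from DNA, stood at 162 in GFP+ HSCs, 297 in GFP- HSCs and 551 in MPPs. It was 1.83-fold lower in GFP+ than in GFP- HSCs and 1.86-fold lower in GFP- HSCs than in MPPs. Lig1 (chromosome 7, 13277175 to 13311426), the ligase that also joins Okazaki fragments in S phase, stood at 2881 in GFP+ HSCs, 4269 in GFP- HSCs and 7258 in MPPs, 1.48-fold lower in GFP+ than in GFP- HSCs and 1.70-fold lower in GFP- HSCs than in MPPs. Lig3, the ligase that works with XRCC1, was level, at 3380 in GFP+ HSCs, 3565 in GFP- HSCs and 3455 in MPPs. Xrcc1, the scaffold of single-strand break repair, stood at 1627 in GFP+ HSCs, 1816 in GFP- HSCs and 2340 in MPPs. The sensor of strand breaks Parp1 stood at 7516 in GFP+ HSCs, 8520 in GFP- HSCs and 12649 in MPPs. Parp2, another sensor, stood at 1837 in GFP+ HSCs, 1949 in GFP- HSCs and 2204 in MPPs. Apex1, which cuts at sites that have lost their base, stood at 2957 in GFP+ HSCs, 3293 in GFP- HSCs and 5110 in MPPs. Ogg1, which removes oxidised guanine, stood at 449 in GFP+ HSCs, 420 in GFP- HSCs and 574 in MPPs. The gap-filling polymerase gene Polb stood at 847 in GFP+ HSCs, 912 in GFP- HSCs and 896 in MPPs. The 2 ligases therefore differed in pattern, Lig1 with a wide gap in each comparison and Lig3 with folds of 1.06 or less. With the trend on length and GC content removed, the log2 ratio of Lig3 was -0.11 between GFP- HSCs and MPPs and -0.22 between GFP+ HSCs and MPPs. Lig3 also overlaps another gene, as given below.

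Nucleotide excision was the pathway with a positive median between the HSC fractions, 0.11, with 4 of 6 genes higher in GFP+ HSCs. Of all compared genes 6183 of 11951 were higher there, with quartiles of -0.13 and 0.15. The pathway median lay inside that range. Ercc5 (chromosome 1, 44146948 to 44181260), a nuclease that makes one of the cuts, stood at 957 in GFP+ HSCs, 769 in GFP- HSCs and 621 in MPPs. It had the highest ratio of the 52 genes between the HSC fractions, 1.24-fold higher in GFP+ than in GFP- HSCs, and was 1.54-fold higher in GFP+ HSCs than MPPs. Xpc (chromosome 6, 91489305 to 91515888), the sensor of damage across the genome, stood at 3938 in GFP+ HSCs, 3551 in GFP- HSCs and 7894 in MPPs. Xpc was 1.11-fold higher in GFP+ than in GFP- HSCs and 2.22-fold lower in GFP- HSCs than in MPPs, so the gap lay between both HSC libraries and MPPs. The call against MPPs for GFP+ HSCs, 2.0-fold on the levels, lay at the threshold and was lost with a pseudocount of 20, after either rescaling and with the abundance trend removed. Xpa, which verifies the lesion, stood at 348 in GFP+ HSCs, 314 in GFP- HSCs and 382 in MPPs. Ercc1, part of the other nuclease, stood at 448 in GFP+ HSCs, 506 in GFP- HSCs and 658 in MPPs. Of the helicase genes of TFIIH, Ercc2 stood at 655 in GFP+ HSCs, 623 in GFP- HSCs and 760 in MPPs, 1.22-fold lower in GFP- HSCs than in MPPs. Ercc3 stood at 838 in GFP+ HSCs, 902 in GFP- HSCs and 906 in MPPs. Between GFP- HSCs and MPPs 5 of 6 genes were lower in GFP- HSCs, against 50.6% of compared genes, but Ercc3 turned under both rescalings.

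Levels of different genes were compared per kilobase of the longest annotated transcript. That length need not match the exonic bases of the GENCODE M21 basic set, as for Xrcc4 with 3422 against 1540. Values and places per kilobase therefore depend on the annotation. On that scale Apex1 was the highest of the 52 in all libraries, at 2387 in GFP+ HSCs, 2658 in GFP- HSCs and 4124 in MPPs per kilobase. Parp1 followed at 1941 in GFP+ HSCs, 2200 in GFP- HSCs and 3266 in MPPs per kilobase. Msh6 followed in both HSC libraries, at 1318 per kilobase in GFP+ HSCs and 1516 in GFP- HSCs, while Lig1 came after Parp1 in MPPs, at 2265 per kilobase, next to Msh6 at 2215. At the other end stood Lig4 at 7.96 in GFP+ HSCs, 9.35 in GFP- HSCs and 12.9 in MPPs per kilobase. Rad51c stood at 15.2 in GFP+ HSCs, 28.7 in GFP- HSCs and 36.5 in MPPs, and Bard1 stood at 15.4 in GFP+ HSCs, 21.6 in GFP- HSCs and 45.8 in MPPs. Partners in a complex could differ widely on this scale. Bard1 lay below Brca1, which had 148.1 per kilobase in GFP+ HSCs, 239 in GFP- HSCs and 351.2 in MPPs. Lig4 lay below Xrcc4, at 176.5 in GFP+ HSCs, 176.2 in GFP- HSCs and 121.9 in MPPs per kilobase.

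Reads of overlapping genes cannot be told apart in these libraries, which do not mark the strand. In the GENCODE M21 basic set, 70.8% of the exonic bases of Apex1 lie in exons of a gene on the opposite strand, Tmem55b, which stood at 4309 in GFP+ HSCs, 4099 in GFP- HSCs and 5698 in MPPs. The level of Apex1 and its place per kilobase are uncertain for that reason. For Lig3 the share was 27.9%, with Rffl, at 2850 in GFP+ HSCs, 2510 in GFP- HSCs and 1743 in MPPs. For Fancl it was 17.0%, with Vrk2, at 865 in GFP+ HSCs, 856 in GFP- HSCs and 1224 in MPPs. For Fanci it was 13.4%, with Polg, at 2495 in GFP+ HSCs, 2331 in GFP- HSCs and 2411 in MPPs. Ercc2 shared 18.1% of its exonic bases with an antisense transcript and 16.4% with Klc3, at 358 in GFP+ HSCs, 343 in GFP- HSCs and 229 in MPPs. How reads in these stretches were counted was not tested, so the levels and ratios of these genes, Lig3 among them, are uncertain too.

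A wider list of 141 other repair genes, of which 136 were compared, showed a like but smaller shift. Between the HSC fractions 100 of the 136 were lower in GFP+ HSCs, with a median log2 ratio of -0.10. Of all compared genes 47.8% were lower, with a median of 0.01. In that comparison 1 gene, or 0.735%, was at least 2-fold lower, near the 0.870% of all compared genes, and 10, or 7.35%, were at least 1.5-fold lower, against 3.05%. The gene past 2-fold was Recql4, a helicase of the RecQ family to which Blm also belongs, at 252 in GFP+ HSCs, 534 in GFP- HSCs and 761 in MPPs. The next lowest was Eme1, partner of a nuclease that cuts joined chromatids, at 405 in GFP+ HSCs, 703 in GFP- HSCs and 1288 in MPPs. Apitd1, a histone-fold partner of FANCM, followed at 223 in GFP+ HSCs, 388 in GFP- HSCs and 607 in MPPs. Brip1, a helicase that binds BRCA1, had 674 in GFP+ HSCs, 1140 in GFP- HSCs and 2180 in MPPs. At the upper end were the glycosylase genes Mpg, at 764 in GFP+ HSCs, 543 in GFP- HSCs and 482 in MPPs, and Neil1, at 518 in GFP+ HSCs, 391 in GFP- HSCs and 338 in MPPs. They were 1.41-fold and 1.32-fold higher in GFP+ than in GFP- HSCs. Eme2 followed at 738 in GFP+ HSCs, 594 in GFP- HSCs and 324 in MPPs, and then Parp3 at 890 in GFP+ HSCs, 722 in GFP- HSCs and 519 in MPPs.

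Between GFP- HSCs and MPPs 93 of the 136 were lower in GFP- HSCs, with a median of -0.22. Of all compared genes 50.6% were lower, with a median of -0.01. At least 2-fold lower were 8, or 5.88%, near the 5.53% of all compared genes, and 2 were at least 2-fold higher, where 11.6% of compared genes were. After rescaling to the same total and upper quartile the counts of 2-fold lower genes were 5 and 3, without a background counted alike. Among those with the lowest ratios was H2afx, the gene of the histone variant that is phosphorylated around breaks, at 2875 in GFP+ HSCs, 4329 in GFP- HSCs and 10823 in MPPs. Rmi2, a partner of BLM, stood at 318 in GFP+ HSCs, 539 in GFP- HSCs and 1344 in MPPs. Rad54b was at 413 in GFP+ HSCs, 617 in GFP- HSCs and 1320 in MPPs, and the resolvase gene Gen1 was at 118 in GFP+ HSCs, 140 in GFP- HSCs and 383 in MPPs. The highest was Polm, a polymerase of end joining, at 128 in GFP+ HSCs, 179 in GFP- HSCs and 32 in MPPs. Uvssa, a factor of nucleotide excision at stalled transcription, followed at 1039 in GFP+ HSCs, 872 in GFP- HSCs and 377 in MPPs. Rad9b, at 221 in GFP+ HSCs, 185 in GFP- HSCs and 102 in MPPs, followed Eme2. Between GFP+ HSCs and MPPs 95 of the 136 were lower in GFP+ HSCs, against 49.2% of compared genes. At least 2-fold lower were 24, or 17.6%, against 8.61% of compared genes, and 4 were at least 2-fold higher, where 13.7% of compared genes were.

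**Figure D3:**
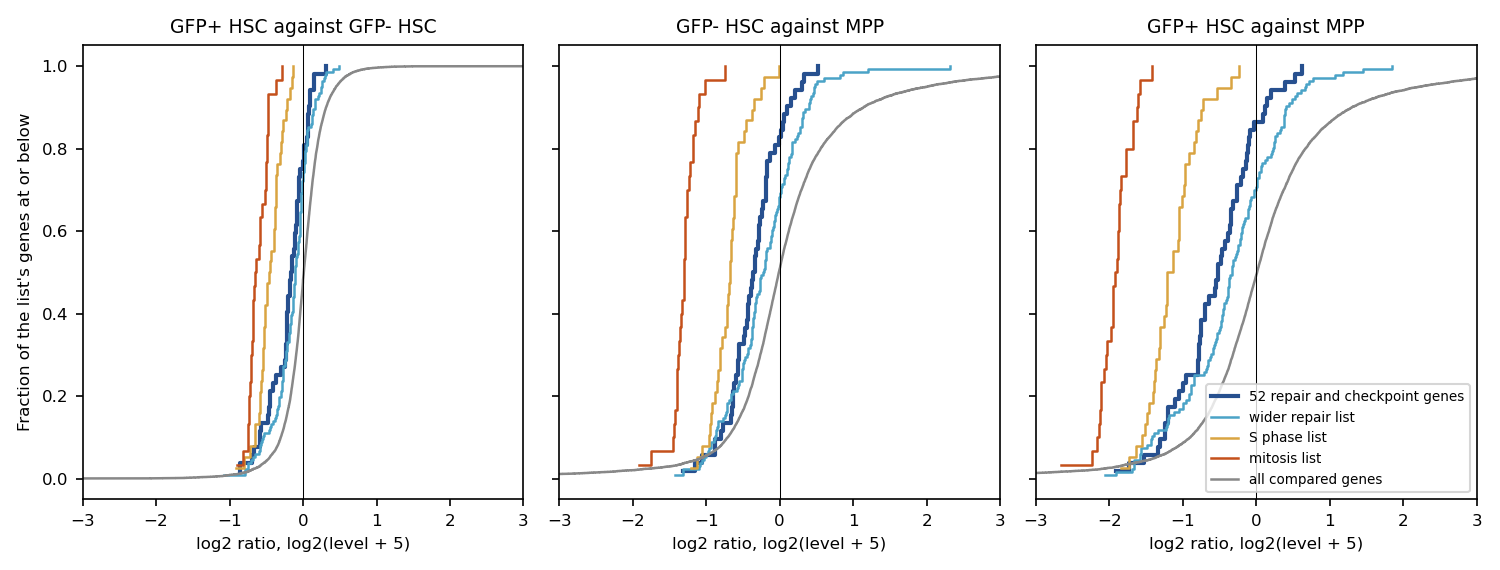
Cumulative fraction of genes against log2 ratio in each of the 3 comparisons, for the 52 repair and checkpoint genes, the wider repair list, lists of S phase and mitosis genes, and all compared genes. The line of the 52 genes lies between that of all compared genes and that of the S phase list at the median of each panel, with medians of -0.16, -0.35 and -0.52 from left to right.

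Transcripts of dividing cells differed between the libraries in the same direction and by more. All 38 genes of an S phase list were lower in GFP+ than in GFP- HSCs, with a median of -0.46, and all 38 were lower in GFP- HSCs than MPPs, with a median of -0.67, except that Chaf1b turned under both rescalings. All 30 genes of a mitosis list were lower in both comparisons, with medians of -0.65 and -1.30. Of all compared genes 47.8% and 50.6% were lower in these comparisons in that order. The summed level of the S phase list was 115960 in GFP+ HSCs, 152761 in GFP- HSCs and 247025 in MPPs. That of the mitosis list was 45037 in GFP+ HSCs, 69413 in GFP- HSCs and 166367 in MPPs. The sum over the 52 repair genes was 74411 in GFP+ HSCs, 83301 in GFP- HSCs and 113562 in MPPs, and no member of the 3 lists was at 0. The proliferation marker Mki67 stood at 3990 in GFP+ HSCs, 6410 in GFP- HSCs and 10712 in MPPs. Cdc6, which loads the replicative helicase, stood at 779 in GFP+ HSCs, 1474 in GFP- HSCs and 2434 in MPPs. The part of cell division in the levels of the repair genes was not tested. Summed levels of genes listed as markers of other cell types also varied. They were 4672 in GFP+ HSCs, 4055 in GFP- HSCs and 152235 in MPPs for 8 neutrophil genes. These were S100a8, S100a9, Ltf, Ngp, Camp, Lcn2, Elane and Mpo, and whether neutrophils were present in any library was not tested. The neutrophil sum was carried by few genes, since the median level was 292.5 in GFP+ HSCs, 165 in GFP- HSCs and 116 in MPPs, and 5 of the 8 were higher in GFP+ HSCs than MPPs. The sums were 1127 in GFP+ HSCs, 2761 in GFP- HSCs and 1936 in MPPs for 6 erythroid genes, and 5327 in GFP+ HSCs, 9324 in GFP- HSCs and 1813 in MPPs for 5 megakaryocyte genes. For 6 B cell genes they were 903 in GFP+ HSCs, 769 in GFP- HSCs and 1341 in MPPs, and for 6 T and NK cell genes 735 in GFP+ HSCs, 771 in GFP- HSCs and 2128 in MPPs. Their part was not tested either.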

How the data were processed

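The authors deposited 1 table of normalized counts per gene, held as whole numbers, for 1 library each of GFP+ HSCs, GFP- HSCs and MPPs. The submitters' processing notes name STAR and DESeq2 and, as the genome build, mm10. The sources used here do not give their versions, the annotation or the counting tool. The deposited values were treated as a score, because the scaling factors and the reads behind them are not known, so no counting interval and no count test were made. Per the labels' protocols, a SMART-seq v4 kit for low input gave the cDNA. This chemistry does not mark the strand and has no molecular identifiers.

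Of 23420 rows, 27 held a date in place of a symbol (0.212% of summed levels) and were left out. Ratios were differences of log2(level + 5) among the 11951 genes whose mean level reached 50, and folds of single genes are ratios of the levels. Genes were called at 2-fold and at 1.5-fold on the ratios, not on the folds of the levels. The 52 genes, the wider lists and the motifs were chosen with earlier results of these data known. All 52 genes are given. Of the wider repair list those named are the 4 genes with the highest and the 4 with the lowest ratio per comparison, at a mean of at least 100, and of the cell division lists examples; other genes were named after their values were seen. Gene coordinates and sequences are RefSeq's, GRCm38.p6, and transcript lengths are of the longest GENCODE M21 transcript, found by symbol for 11237 of the compared genes. The calculation was tested on simulated data. The alternatives tried were a pseudocount of 1 or 20, a minimum mean of 10, of 200 or no minimum, libraries rescaled to equal totals or equal upper quartiles, thresholds of 1.5-fold and 4-fold, removal of trends on abundance (lowess) or on length and GC content, and the mean in place of the median. Python 3.11.15, numpy 2.4.6, pandas 2.3.3, statsmodels 0.14.6 and matplotlib 3.10.9 were used.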

Additional observations from a re-analysis of the deposited data

How the results depend on the processing

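The median log2 ratio of the 52 genes stayed below 0 under all alternatives run. It ranged from -0.20 to -0.15 for GFP+ against GFP- HSCs, from -0.41 to -0.24 for GFP- HSCs against MPPs and from -0.58 to -0.43 for GFP+ HSCs against MPPs. The value of -0.24 came from rescaling to the same upper quartile, which also moved the median of all compared genes to 0.10 from -0.01, so the distance of the 52 genes from all genes was -0.34 as before. The number past 2-fold was replaced at a threshold of 1.5-fold by 4, 13 and 24 genes in the 3 comparisons in that order, and at 4-fold by 0 in each, as a lower or higher threshold must do. Under the other alternatives it was 0 between the HSC fractions, 2 to 4 between GFP- HSCs and MPPs and 10 to 14 between GFP+ HSCs and MPPs. Fancd2 passed 2-fold between GFP- HSCs and MPPs under each of these, as did Xpc. No paired analysis was possible because each population has 1 library. For the same reason no library could be left out, and repeated sorts of the same populations would be needed to set any of these differences against an error. The depth is unknown, so counting error at low levels, as for Lig4, Rad51c and Bard1, could not be given.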
